A study of Homo sapiens with 2 samples.

Results

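The genes described here are 60 cell junction and adhesion genes that differed between untreated and ezetimibe-treated SNU-449 cells. They are among 2238 genes that the authors listed as changed under at least 1 KEGG pathway, called all listed genes below. The 60 were chosen from the authors' deposited enrichment table, as the changed genes under the KEGG pathways Cell adhesion molecules, Tight junction or Adherens junction. These 3 pathways held 105 changed genes. From them, 45 were taken out because they also belong to focal adhesion, matrix, Hippo, TGF-beta, Wnt, MAPK, Ras, cAMP, cytokine, cell cycle, AMPK, axon guidance or TNF pathways, or are JUN, MAPK9 or MAPK10. SNU-449 is an established human hepatocellular carcinoma line, and total RNA was sequenced from 1 control culture and from 1 culture given ezetimibe, an inhibitor of the sterol transporter NPC1L1, for 24 h. By the labels both were grown in the same medium with serum. No source used here gives the dose of the drug or the number of reads.

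The table gives each gene a direction, up or down, and no level, fold change or p-value per gene. The comparison's name puts ezetimibe first, so up is taken to mean more RNA in the treated culture, and the table holds nothing to check this by. The authors' call of change chose the members, so their directions are a description of 2 libraries without a replicate check, and no test was made on them. The authors' cutoff is not given, so genes just inside and just outside it cannot be shown. Of 8877 background genes in the table, 25.2% were listed as changed, 8.20% as up and 17.0% as down. Only genes under a pathway of the table can be listed. A gene called not listed here was therefore either not called changed or is under none of these pathways. In bulk RNA, fewer cells that express a gene and less of its RNA per cell cannot be told apart. The labelled cell type could not be checked against levels. Of 10 hepatocyte markers 4 were listed, all as down (CPS1, FGA, FGB and FGG). Of 5 cholangiocyte markers SOX9 and SPP1 were listed, as down, and of 6 epithelial markers only CDH1, as down. The 8 mesenchymal markers were split, with VIM and SNAI1 up, CDH2 and FN1 down and 4 not listed. Of 7 leukocyte markers only CD14 was listed, as down, and none of 6 endothelial markers was listed.

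Epithelial cells hold together through belts of junctions below their free surface. Tight junctions seal the space between cells with strands of claudins, which scaffold proteins tie to actin, and adherens junctions join cells through cadherins and nectins, which catenins and afadin link to actin. In liver these belts close off the bile canaliculus. The KEGG group of adhesion molecules also holds the MHC proteins, the co-signalling proteins of T cells and the adhesion proteins of synapses.

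Of the 60 members, 17 were listed as up and 43 as down, a share up of 28.3%, beside 32.5% of all 2238 listed genes. The 43 genes listed as down took in most scaffold, catenin and neural adhesion members, whereas the MHC class I members were listed as up. Claudins and T cell co-signalling molecules were split between the directions. Counts by role list below rest on few members each and are to be read beside 1510 of all 2238 listed genes listed as down. By pathway, 9 of 28 members under Cell adhesion molecules were up, 7 of 26 under Tight junction and 3 of 12 under Adherens junction. The pathways overlapped in 6 members, and no member was under all 3.

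**Figure D1:**
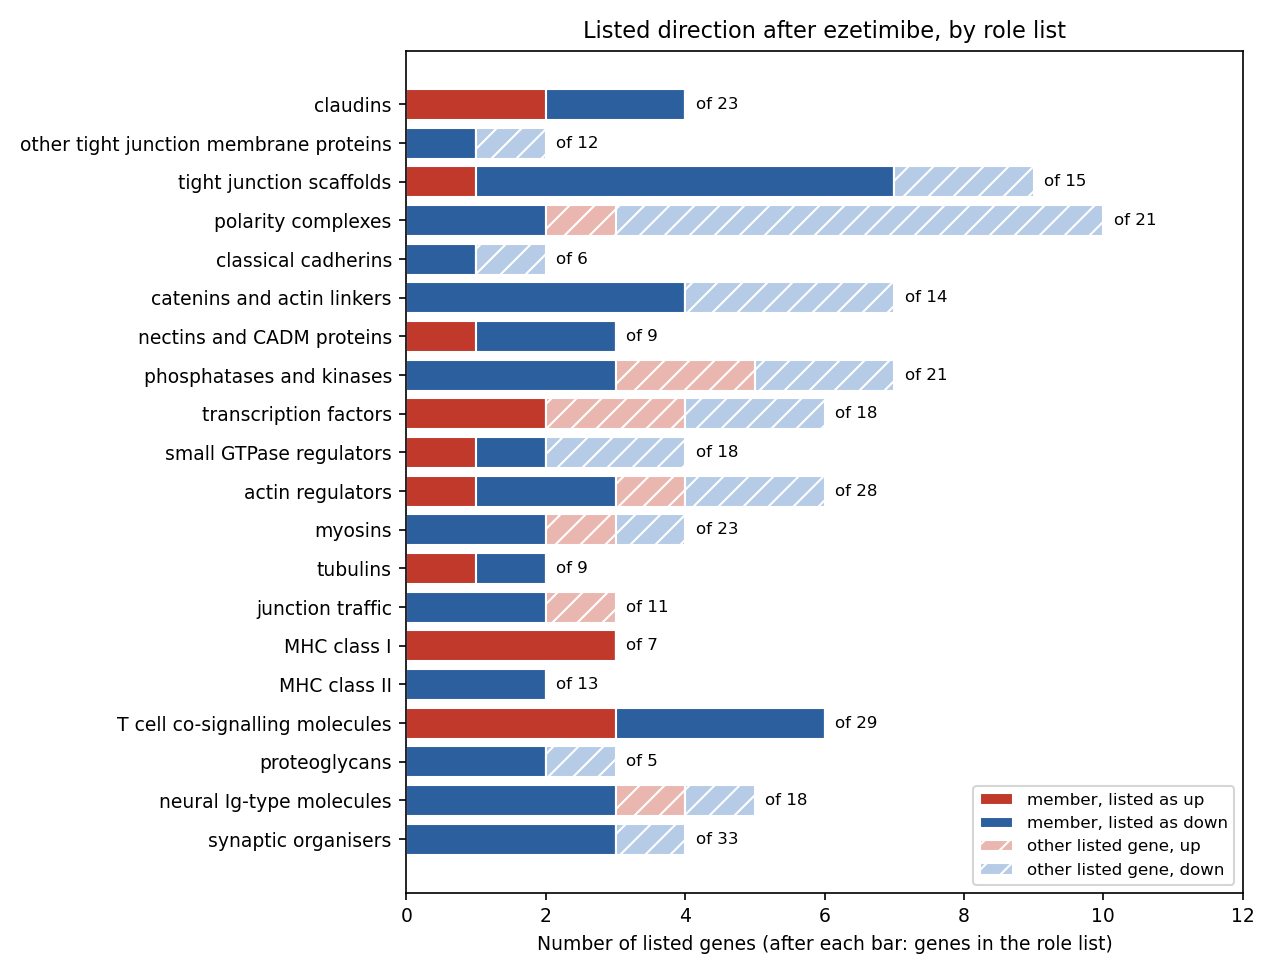
Number of listed genes (x axis) in each role list with a member among the 60 genes (y axis); solid bars are members and hatched bars are genes listed elsewhere in the table or taken out of the set, red for up and blue for down, and the number after each bar is the size of the role list. Many lists have only a blue solid bar, among them catenins, myosins, neural molecules and synaptic organisers. MHC class I and transcription factors have only a red one, and claudins have 2 members of each direction.

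In the authors' deposited table none of these pathways had a p below 0.05. Cell adhesion molecules had 38 changed genes of 269 (14.1%), a rich factor (share among changed genes over share in the background) of 0.560 and p = 1.0 in the authors' deposited table. Tight junction had 54 of 181 (29.8%), with a rich factor of 1.18 and p = 0.200 in the authors' deposited table. Adherens junction had 24 of 80 (30.0%), with a rich factor of 1.19 and p = 0.336 in the authors' deposited table. Before genes were taken out, 11 of the 38, 11 of the 54 and 5 of the 24 were listed as up.

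Claudins, the strand proteins of the tight junction, had 4 listed members of 23 and went both ways. CLDN4, a sealing claudin, and CLDN15, which forms cation pores, were listed as up. CLDN3, a sealing claudin and with CLDN4 a receptor of a clostridial enterotoxin, was listed as down, as was CLDN2, which forms pores for cations and water. CLDN3 and CLDN4 are neighbours on chromosome 7, with 29.3 kb between them in GENCODE release 29, and were listed in opposite directions. CLDN3 and CLDN4 share few stretches of sequence, with 3.30% of the 31-base words of the longest CLDN3 transcript also found in CLDN4 transcripts. Other membrane proteins of the tight junction had 1 member from a list of 12, the immunoglobulin-type protein JAM2, listed as down. The virus receptor CXADR, outside the 60 genes, was also listed as down.

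Promoter windows are shown for the junction membrane proteins that belong to 2 of the 3 pathways and had an entry. Only their motifs and base composition were compared, and the windows were not aligned with each other. RefSeq windows on GRCh38.p14 run from 250 bases before to 50 bases after the annotated start, and 44 of the 60 members had at least 1. JAM2 belongs to the same group by the rule. Each window is written on the gene's own strand. Capitals mark an AP-1 motif (TGAGTCA or TGACTCA, which are one motif on opposite strands) or an E-box of the kind that SNAI and ZEB repressors bind (CACCTG or CAGGTG, likewise). These motifs do not overlap each other in the windows shown.
CLDN4, listed as up (chr7:73830746-73831045, plus strand): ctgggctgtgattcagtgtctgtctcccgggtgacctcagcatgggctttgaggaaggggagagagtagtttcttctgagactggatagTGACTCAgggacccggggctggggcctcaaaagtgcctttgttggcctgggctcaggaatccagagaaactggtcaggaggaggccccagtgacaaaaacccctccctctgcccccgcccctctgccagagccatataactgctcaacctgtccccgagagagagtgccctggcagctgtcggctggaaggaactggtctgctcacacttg
CLDN15, listed as up (chr7:101237753-101238052, minus strand): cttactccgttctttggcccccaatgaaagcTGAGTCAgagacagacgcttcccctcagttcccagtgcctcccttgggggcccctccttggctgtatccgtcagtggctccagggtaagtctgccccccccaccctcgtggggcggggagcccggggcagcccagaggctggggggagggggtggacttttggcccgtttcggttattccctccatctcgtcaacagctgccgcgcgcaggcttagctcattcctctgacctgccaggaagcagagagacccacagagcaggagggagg
CLDN3, listed as down (chr7:73770221-73770520, minus strand): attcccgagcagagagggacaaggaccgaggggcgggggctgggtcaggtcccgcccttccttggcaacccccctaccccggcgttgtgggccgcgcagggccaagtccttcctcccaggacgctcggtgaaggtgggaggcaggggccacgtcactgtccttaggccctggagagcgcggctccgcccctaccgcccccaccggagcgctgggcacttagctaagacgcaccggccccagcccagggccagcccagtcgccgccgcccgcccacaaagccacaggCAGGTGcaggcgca
CLDN2, listed as down, upstream start (chrX:106899914-106900213, plus strand): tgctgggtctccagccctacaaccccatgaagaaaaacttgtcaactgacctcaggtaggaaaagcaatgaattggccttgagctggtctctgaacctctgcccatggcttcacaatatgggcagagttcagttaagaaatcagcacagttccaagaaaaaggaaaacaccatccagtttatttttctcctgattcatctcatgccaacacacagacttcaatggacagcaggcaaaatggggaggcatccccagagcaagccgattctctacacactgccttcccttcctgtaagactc
CLDN2, downstream start (chrX:106918110-106918409, plus strand): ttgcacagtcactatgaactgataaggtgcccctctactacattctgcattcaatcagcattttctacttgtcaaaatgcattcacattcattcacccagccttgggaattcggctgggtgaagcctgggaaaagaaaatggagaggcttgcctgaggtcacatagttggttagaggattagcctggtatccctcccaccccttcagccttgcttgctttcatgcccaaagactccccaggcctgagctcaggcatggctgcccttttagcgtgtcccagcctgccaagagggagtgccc
PVRL3, listed as down (chr3:111071566-111071865, plus strand): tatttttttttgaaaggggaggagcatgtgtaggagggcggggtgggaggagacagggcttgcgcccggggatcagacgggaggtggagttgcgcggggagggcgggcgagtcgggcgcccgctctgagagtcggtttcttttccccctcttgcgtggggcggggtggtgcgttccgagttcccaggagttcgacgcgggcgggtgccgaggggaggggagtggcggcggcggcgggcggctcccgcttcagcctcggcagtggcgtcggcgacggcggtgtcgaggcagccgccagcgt

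Among these windows, those of the claudins listed as up each held an AP-1 motif, 161 bases before the start in CLDN4 and 219 bases before it in CLDN15. CLDN3 held an E-box 36 bases after its start. No match was found in either CLDN2 window or in that of PVRL3, which says only that these letters are not in the windows. The window of CLDN3 had a GC content of 72.0% and 24 CpG dinucleotides, and that of CLDN4 59.0% and 5. CLDN15 had 64.0% and 12, PVRL3 70.3% and 36, and the CLDN2 windows 47.3% and 51.3% with 1 and 2. Up and down claudins were thus not ordered by promoter GC content.

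Over all members, 4 of 62 windows (6.45%) held the AP-1 motif, against 4.95% of all 35116 windows in the table. They belonged to CLDN4, CLDN15 and NEDD4, the last with 2 of 3 windows and listed as down. Split by direction, 2 of 15 windows from members listed as up held the AP-1 motif (13.3%) and 2 of 47 from members listed as down (4.26%). Over all listed genes, the AP-1 shares were 5.19% of 829 windows for up and 3.37% of 1900 for down. The E-box was in 10 of 62 windows (16.1%), against 20.6% of all windows. Members with an E-box were CLDN3, ALCAM, CRB3, LMO7, MYH10, NLGN4X and NRXN3, all listed as down, and PVRL4, listed as up. By window, 9 of 47 from genes listed as down held it (19.1%) and 1 of 15 from genes listed as up (6.67%). For all listed genes, the shares were 17.1% of 1900 windows and 21.7% of 829. LMO7 alone gave 3 of the 9 E-box windows of members listed as down, from its 5 windows. Windows are therefore not separate genes. A match is a string of letters and shows no binding.

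Scaffold proteins under the tight junction formed the largest group, with 7 members from a list of 15, and 6 of them were listed as down. Among these were cingulin CGN, the multi-PDZ proteins MPDZ and MAGI1, and the angiomotin-like proteins AMOTL1 and AMOTL2, which bind actin and the Hippo effector YAP. TJAP1, a protein that associates with tight junctions, was listed as up. From the same list AMOT and MAGI3, outside the 60 genes, were listed as down.

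Polarity proteins, which set the apical border of the cell, had 2 members of a list of 21, both listed as down. They were CRB3, the Crumbs protein of epithelia, and the membrane-associated guanylate kinase MPP4, best known from retina. Most listed polarity genes had been taken out of the set by their other pathways. Of those 8, PARD3, PARD6A, PARD6B, PARD6G, PRKCI, DLG1 and MPP5 were listed as down, and the atypical protein kinase C gene PRKCZ as up. PRKCI encodes the other atypical kinase of the Par complex, so the pair was listed in opposite directions.

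At the adherens junction, N-cadherin CDH2 was the 1 member from the list of 6 classical cadherins and was listed as down. E-cadherin CDH1, which was taken out of the set by its other pathways, was listed as down too. Catenins and actin linkers had 4 members of 14, all listed as down. Among them were p120-catenin CTNND1, which holds cadherins at the surface, and LMO7 and SSX2IP, which bind the nectin linker afadin. Plakoglobin JUP, vinculin VCL and ACTN4, outside the set, were likewise listed as down, and beta-catenin CTNNB1 and alpha-catenin CTNNA1 were not listed. Of all 2238 listed genes, 1510 were listed as down.

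Nectins and the related CADM proteins, immunoglobulin-type receptors that start cell contacts, had 3 members of 9. PVRL3 (nectin-3) and CADM1 were listed as down, and PVRL4 (nectin-4), a receptor for measles virus in epithelia, as up. Phosphatases and kinases of junctions had 3 members of 21. The kinase FER and the receptor phosphatases PTPRB, which acts on VE-cadherin, and PTPRJ were all listed as down. So were 1510 of all 2238 listed genes. Outside the set, the kinase FYN and the kinase subunit CSNK2B of the same role list were up, and the receptors IGF1R and MET down. The transcription factor members were SNAI1, a repressor of the E-cadherin gene, and GATA4, a factor of heart and early liver, and both were listed as up. Outside the set, CEBPA and JUN of this list were up, and SMAD3 and TCF7L2 down.

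Members that act on the cytoskeleton went both ways. Of the actin regulators, 3 members of 28, the Arp2/3 subunit ACTR3 and radixin RDX, which ties membranes to actin, were down, and WASF2, an activator of the Arp2/3 complex, was up. Outside the set, the Arp2/3 subunit ARPC4 was up, and ACTB and NF2 were down. Both myosin heavy chain members, MYH10 (non-muscle myosin IIB) and MYH15, were down, while of the light chains outside the set MYL5 was up and MYL9 down. Alpha-tubulins were split, with TUBA1B down and TUBA8 up. GTPase regulators were also split, with ARHGEF2, a GTPase activator held on microtubules, up, and the Rap activator RAPGEF6 down. FARP2, a GTPase exchange factor in none of the role lists, was down. The ubiquitin ligase NEDD4 and the vesicle GTPase RAB8B, the traffic members, were down, and the membrane fusion protein STX3, from the same list but outside the set, was up. Under Rap1 signaling, which promotes cadherin contacts, 4 members were listed, CTNND1, FARP2, MAGI1 and RAPGEF6, all as down. Most genes were down in any case, 43 of the 60 members and 1510 of all 2238 listed genes.

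MHC genes were listed by class. The class I members HLA-B, HLA-C and HLA-E, which present peptides to cytotoxic T cells or engage natural killer cell receptors, were up, 3 of a list of 7. The class II members HLA-DMA and HLA-DMB, the chains of the protein that loads peptides onto class II molecules, were down, 2 of a list of 13. No other class II chain of the list was listed. HLA-B and HLA-C are related genes, with 11.5% of the 31-base words of HLA-C also in HLA-B, and their GENCODE spans overlap by 2640 bases. The calls of this pair are therefore uncertain as separate genes. HLA-DMA and HLA-DMB lie 7.54 kb apart on chromosome 6.

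The list of T cell co-signalling molecules, which also holds the B cell lectin CD22, had 6 members of 29, with 3 in each direction. CD274 (PD-L1) and PDCD1LG2 (PD-L2), the ligands of the inhibitory receptor PD-1, were both listed as down. They are neighbours on chromosome 9, with 40003 bases between them. The B7 family members CD276 (B7-H3) and ICOSLG, the ligand of the T cell receptor ICOS, were listed as up. CD22, which is no T cell co-signalling molecule, was listed as up, and ALCAM, the ligand of CD6, as down. The entry CH507-9B2.1, which the table places under the same pathways as ICOSLG, was up as well. Of the 31-base words in its longest transcript, 96.1% are also in ICOSLG transcripts, so these 2 entries cannot be counted as independent. The other entry with a clone name, CTD-2207O23.3, was up and overlaps ARHGEF18, an exchange factor of the tight junction that was not listed, over 77365 bases of chromosome 19. Without these clone-named entries 15 of 58 members were up (25.9%).

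Adhesion molecules best known from nerve and matrix were listed as down without exception among the members. Most genes were down in any case, 43 of all 60 members and 1510 of all 2238 listed genes. Neural immunoglobulin-type molecules and their partners had 3 members of 18, CNTNAP1, a protein of myelinated nerve fibres, NCAM2 and NEGR1. L1CAM, from the same list but taken out of the set, was up, and NEO1 was down. Synaptic organisers had 3 members of 33, the neuroligins NLGN2 and NLGN4X and their partner NRXN3. The proteoglycan members, 2 of 5, were syndecan SDC2 and the matrix proteoglycan versican VCAN, and SDC1 outside the set was down too.

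The direction of a member went with the composition of its transcript, as for the listed genes as a whole. In members listed as up, the GC content of the longest GENCODE transcript ran from 53.3% (WASF2) to 62.7% (HLA-C), with a median of 58.2%. In members listed as down it ran from 34.2% (NCAM2) to 69.2% (CLDN3), with a median of 45.1%. Over all listed genes the medians were 55.2% for up and 43.6% for down. The ranges overlapped, since 7 members listed as down had at least the GC content of the lowest member listed as up. They were CLDN3, NLGN2, CRB3, CNTNAP1, AMOTL2, CGN and TUBA1B.

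Splitting all listed genes at their median GC content of 47.0% left 27 members in the lower part, and 0 of them were listed as up. In the same lower part, 139 of 1119 listed genes were up (12.4%). In the upper part, 17 of 33 members were up (51.5%), beside 589 of 1118 listed genes (52.7%). Members and listed genes had about the same share up in the upper part, and the lower part held all 27 members as down. Base composition of reads, RNA quality and depth are not in the table, and their part in the listed directions was not tested.

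**Figure D2:**
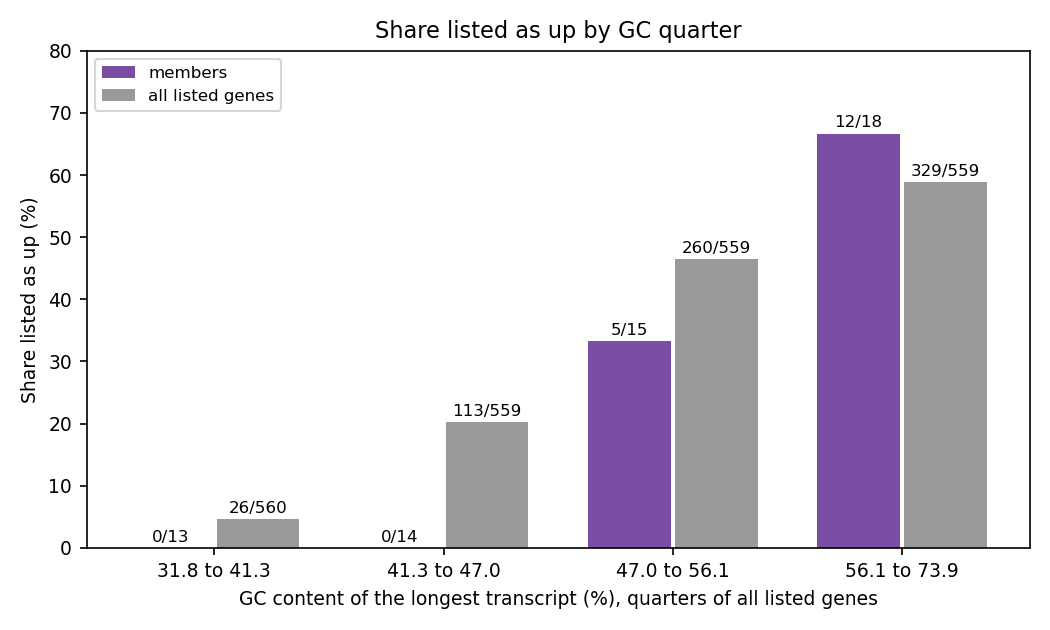
Share of genes listed as up (y axis, percent) in 4 equal classes of all listed genes by the GC content of the longest transcript (x axis, percent); purple bars are the 60 members, grey bars all listed genes with the members included, and the numbers above are genes up over genes in the class. From low to high GC content, members have 0 of 13, 0 of 14, 5 of 15 and 12 of 18 up.

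**Figure D3:**
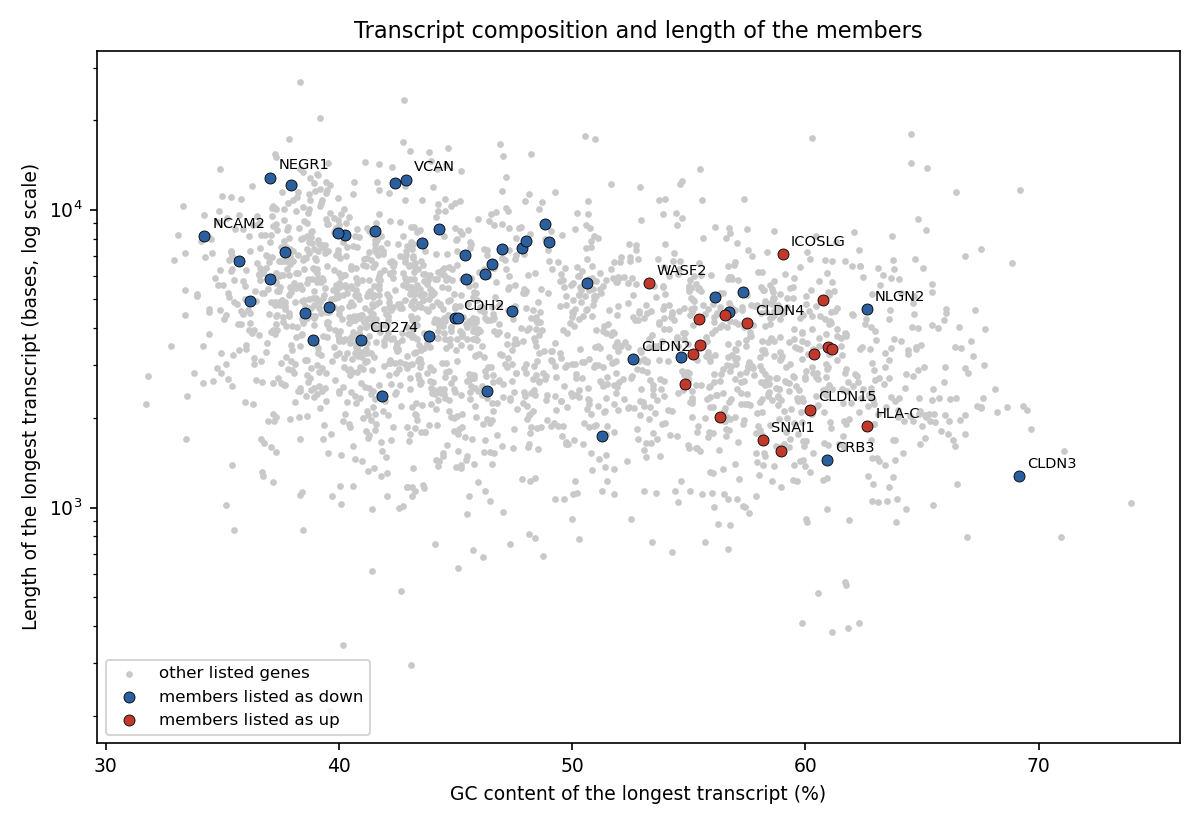
Length of the longest transcript (y axis, bases, log scale) against its GC content (x axis, percent) for each listed gene; red points are members listed as up, blue points members listed as down and grey points the other listed genes. The red points lie between 53.3% and 62.7% GC, and the blue points spread from 34.2% to 69.2% with most at low GC content and greater length.

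Long transcripts and long genes were frequent among the members. The longest transcript had a median of 5843 bases in members listed as down and of 3414 bases in those listed as up, against 4401 and 2860 over all listed genes. This gap depended on the summary used, since by the median length of a gene's transcripts the members' medians were 1572 and 1176 bases. Gene span had a median of 138599 bases in members listed as down, against 52749 bases for all genes listed as down. In members listed as up it was 29034 bases, against 17892 for all genes listed as up. Of the members, 25 (41.7%) span over 100 kb, and all 25 were listed as down. Of all listed genes, 518 (23.1%) do, with 70 up and 448 down. NRXN3 was the longest member at 1697918 bases, followed by NEGR1 at 886795, MAGI1 at 685310 and NCAM2 at 545015. At the other end, CLDN3 spans 1274 bases and was listed as down as well, and HLA-C, the shortest of those listed as up, 3382 bases.

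**Figure D4:**
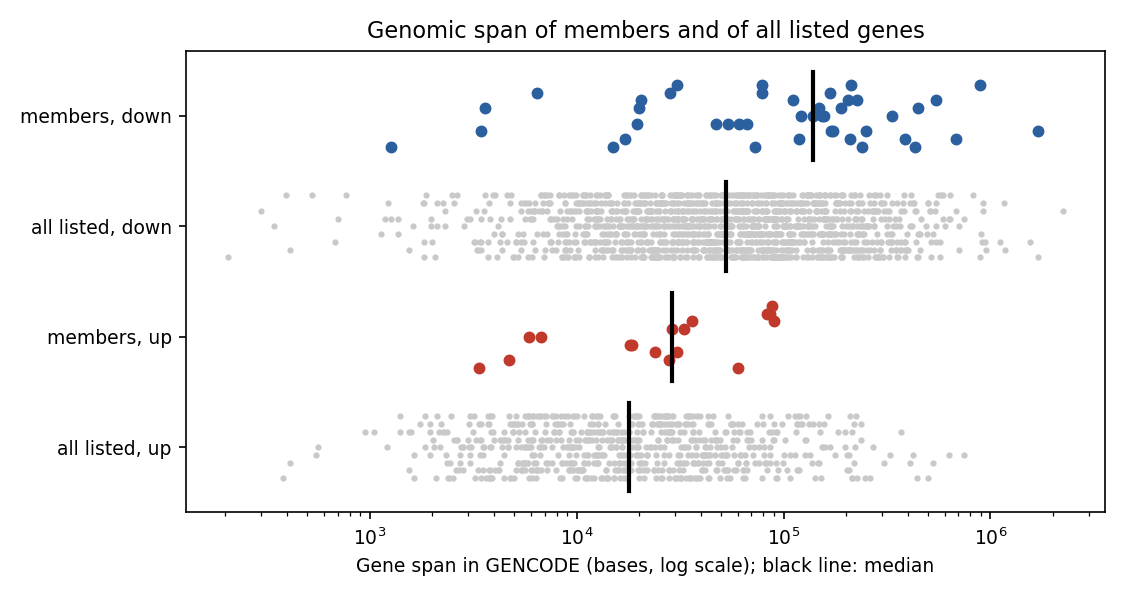
Gene span in GENCODE release 29 (x axis, bases, log scale) for members and for all listed genes by listed direction (y axis); each point is a gene, vertical position within a row has no meaning, and the black line is the median. Members listed as down have a median of 138599 bases and members listed as up one of 29034 bases, and the ranges overlap.

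Promoter composition differed less than transcript composition. The median GC content of the promoter windows was 64.0% over 11 members listed as up and 60.3% over 33 listed as down, beside 65.2% and 64.3% over all listed genes. In the 100 bases nearest the start the medians of members were 66.0% in each direction.

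Of the 60 members, 28 (46.7%) were under a single pathway of the table, as were 39.9% of all listed genes. Among those 28, 5 were up (17.9%), beside 320 of 893 such genes in the whole table (35.8%). Only HLA-DMA and HLA-DMB were under more than 20 pathways.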

How the data were processed

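Total RNA of 1 control and 1 ezetimibe-treated SNU-449 culture was sequenced. Reads were processed with HISAT2 2.0.4 and StringTie 1.3.0, according to the submitters' processing notes; no source used here names the genome build or annotation. By its name, the table the authors deposited, the only file used, comes from edgeR and KEGG enrichment. Per the file headers, the authors deposited for each of 327 pathways numbers of genes, lists of genes up and down, an enrichment ratio, a p-value and a q-value; these were used as they stand.

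Members were found by gene ID, with 13 pathways subtracted. GC content, length and span came from GENCODE release 29 for all 60 members, and promoter windows from RefSeq by symbol. The members, the role lists and the features were chosen with earlier results of these data known. Members are named under the role list they belong to, and some are not reported here; promoters were printed for up to 6 junction membrane proteins under the most of the 3 pathways. With 1 library per condition no test was made, and no value has an error between cultures. The rule was tested on a made-up table. Alternatives were other unions of pathways, left-out gene groups, other transcript summaries and a shorter promoter window. Python 3.11.15, pandas 2.3.3, NumPy 2.4.6, SciPy 1.17.1 and Matplotlib 3.10.9 were used.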

Additional observations from a re-analysis of the deposited data

How the results depend on the processing

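The share of members listed as up was 28.3% of 60. The alternatives are larger or smaller sets of the same genes, so their closeness to this value is no sign of stability. They gave 23.8% of the 105 genes before any were taken out, 32.1% under Cell adhesion molecules, 26.9% under Tight junction, 3 of 12 under Adherens junction, 29.3% without genes under more than 20 pathways, and 24.5% without HLA, tubulin and actin genes. It was 26.3% over the 57 members in a role list and, as alternatives added after the data were seen, 25.9% without the clone-named entries. The difference in median GC content between members listed as up and as down was 13.1 percentage points, and 11.2 to 13.6 with other transcript summaries or without widely annotated or HLA genes, the last also added afterwards. The difference in median length depended on the summary: members listed as up were shorter by the longest transcript (-2429 bases, up minus down), but by the median transcript length the difference was -395.5 bases. The difference in promoter GC content was 3.67 percentage points over 300 bases and 0.0 over the 100 nearest the start. By the authors' p or q, 0 of the 3 pathways passed 0.05. No replicate could be left out. No paired analysis was possible because each condition has 1 library and the result comes from no test.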

Other observations

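The 45 genes taken out of the 3 pathways had 8 listed as up and 37 as down (17.8% up, against 28.3% of the members). Those listed as up were the adhesion molecules ICAM1 and L1CAM, the kinases FYN, CDK4 and PRKCZ, the kinase subunits PRKAB1 and CSNK2B, and JUN. ICAM1, a ligand of leukocyte integrins, was the 1 listed gene of 16 in the list of leukocyte adhesion and passage. All 5 listed integrin chains of 11 were down (ITGA4, ITGA6, ITGAV, ITGB1 and ITGB8).

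The claudins and JAM2 were also listed under Leukocyte transendothelial migration, whose 6 members had 2 up and 4 down. Cellular senescence shared 4 genes with the members, GATA4, HLA-B, HLA-C and HLA-E, all listed as up. Over all 2238 listed genes the share up was 32.5%. The same 3 MHC class I genes were the only members under Natural killer cell mediated cytotoxicity and under Viral carcinogenesis. The senescence count therefore describes these MHC genes and GATA4, and is no result about senescence.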
